A study of Mus musculus with 3 samples.

Results

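The 79 genes of the cytosolic ribosomal proteins were followed through the blood cell classes of naive and leukemic mice. Members were the genes of the feature tables whose symbols are those of the large subunit (Rpl and Rplp, 48 genes) or the small subunit (Rps and Rpsa, 31 genes), without the paralogs Rpl3l, Rpl7l1, Rps27l and Rpl22l1. They made up 79 of 32285 features. The libraries came from peripheral blood (PB) of wild type Balb/C mice and were 3 in all, 1 per condition: a naive library, and libraries taken 11 days (D11) and 14 days (D14) after transplantation of BBC2 cells. BBC2 is a single cell line of stem cell leukemia/lymphoma (SCLL) that carries the BCR-FGFR1 kinase, grows as a pro-B-cell-like leukemia and co-expresses GFP, and D11 and D14 stand for intermediate and late disease. The leukemic libraries share the line, the host strain and the red cell lysis and dead cell removal that the naive library also went through. How many mice went into a library is not stated in the sources used here.

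A ribosome is built from ribosomal RNA and a single copy each of most ribosomal proteins, so that their genes are expressed together and at high levels in cells that make much protein. In lymphocytes the demand is linked to growth and division, while neutrophils and red cells have switched most of this synthesis off by the time they reach the blood. The mRNAs of ribosomal proteins begin with a run of pyrimidines, the 5′ terminal oligopyrimidine (TOP) motif, through which their translation follows the mTOR pathway. The other genes with this motif, such as those of elongation factors, are usually described together with them.

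The deposited matrices held 5386 naive, 8536 D11 and 9337 D14 barcodes with 30362408, 57640396 and 65861863 unique molecular identifiers (UMIs). Filtering and removal of doublets kept 3695, 4400 and 4258 barcodes, and gates on marker genes placed 2862, 3274 and 2915 of them in a class. Those left out fitted no gate (713, 1005 and 1092) or 2 gates (120, 121 and 251). The classes are called T-like, B-like, NK-like, neutrophil-like, classical monocyte-like (cMono), non-classical monocyte-like (ncMono), leukemia-like and red cell-like after their gates, shortened to T cells, B cells and so on. With 5 further markers per class, all 5 were highest in their own class in every library for B cells, NK cells, neutrophils, ncMono and red cells. For T cells 4, 3 and 5 were, since Cd2 was higher in NK cells in the naive and D11 libraries and Lat was higher in leukemia barcodes at D11. For cMono 3 were in each library, and Cd14 was among those higher in neutrophils. For leukemia barcodes 0 of the 5 were highest at D11 or D14, with Cd79a, Ebf1, Pax5 and Blnk among those higher in B cells. The further markers thus did not set this class apart. Vpreb1, a surrogate light chain gene of early B cells, is a gene of the leukemia gate itself. It was at 1087 CPM (D11) and 828 CPM (D14) in leukemia barcodes against at most 3.42 CPM in B cells, which follows in part from the gates. Here CPM is a gene's UMIs after scaling the sum of a class to a common total. Libraries shared 12 to 18 deposited and 3 or 4 kept barcode sequences pairwise. Without the 3 naive barcodes that passed the leukemia gate (58916 UMIs), summed UMIs ran from 243151 in D14 NK cells to 15483135 in D14 leukemia barcodes. With 1 library per condition no test could be made. All intervals are exact 95% intervals (Clopper-Pearson for shares, conditional binomial for ratios) for counting error only, and a condition cannot be told apart from its library.

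Ribosomal protein genes took a share of UMIs that set the classes far apart. In the naive library the share was 19.5% (19.4 to 19.5) in T cells. It was 14.0% in cMono, 11.5% in B cells and 10.9% in NK cells. It was 7.15% in ncMono, 1.81% (1.80 to 1.83) in neutrophils and 0.252% in red cells. The 3 naive barcodes of the leukemia gate, at 25.4%, were left out of this order. Neighbours in it had intervals that did not overlap. The share in red cells follows in part from their gate, which asks for at least 50% hemoglobin UMIs. Without hemoglobin and mitochondrial UMIs it was 3.07%, 4.21% and 4.03% in the naive, D11 and D14 libraries. At D11 the leukemia barcodes were highest with 16.8%, followed by cMono with 14.8% (14.7 to 14.9), T cells with 14.6% (14.6 to 14.7), B cells with 12.3%, NK cells with 8.89%, ncMono with 8.32% and neutrophils with 1.56%. At D14 the order was the same, with 15.9% in leukemia barcodes, 14.6% in cMono, 13.3% in T cells, 12.5% in B cells, 8.39% in NK cells, 6.88% in ncMono and 1.21% in neutrophils. T cells, highest of these 7 classes in the naive library, thus stood below cMono in both leukemic libraries. This order changed with the processing. At D11 T cells were above cMono with 500 genes or more and up to 5% mitochondrial UMIs (15.45% against 15%). With a gate of 1 marker more and none of any other class, T cells were above cMono on both days. The shares were then 15.41% against 13.32% at D11 and 13.78% against 10.97% at D14, with only 5 and 3 cMono barcodes. Barcodes of a class varied widely, with quartiles of 11.7% and 24.8% in naive T cells and of 5.21% and 13.7% in naive B cells. In bulk sums of this kind, fewer cells rich in these mRNAs and less of them per cell cannot be told apart.

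**Figure D1:**
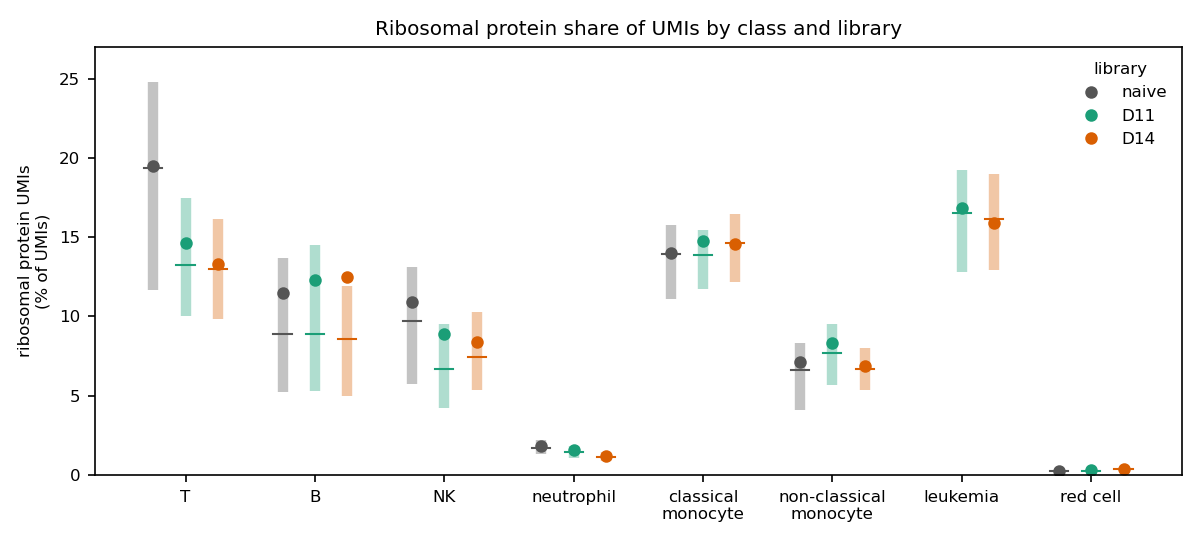
Share of UMIs (%, vertical axis) of the 79 ribosomal protein genes in each class (horizontal axis) and library. Points are the share of the summed UMIs, bars span the first to the third quartile of barcodes and short lines are their medians. The T cell share is 19.5% in naive blood, 14.6% at D11 and 13.3% at D14, and neutrophils and red cells stay below 2% in all libraries.

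T cells had the lower share of ribosomal protein UMIs in both leukemic libraries, with nearly every member lower. Set against naive, the log2 ratio of their share was -0.41 (interval -0.42 to -0.41) at D11, and at D14 it was -0.55 (interval -0.56 to -0.54). Of the 77 members with a mean of at least 50 CPM, 74 were below naive at D11 and 77 at D14. Among all genes tested, 58.2% and 60.4% were above naive. The median log2 ratio of the members was -0.29 at D11 and -0.49 at D14, beside 0.07 and 0.09 over all genes tested. Among the 77, 16 were at least 1.5-fold lower at D11, against 2.87% of all genes, and 26 at D14, against 5.32%, and no member was at least 1.5-fold higher on either day, against 8.63% and 13% of all genes. With TMM factors, a scaling that leaves out extreme genes, the count at D14 was 48. Rps29, a small zinc-binding protein of the small subunit, stood at 6830 CPM in the naive library, 2420 CPM at D11 and 2717 CPM at D14. Both leukemic values were thus well under the naive one, with log2 ratios of -1.50 (-1.54 to -1.45) and -1.33 (-1.40 to -1.26). Rpl35, a protein near the exit of the large subunit's peptide tunnel, went from 1099 CPM to 449 and 457 CPM, log2 ratios of -1.29 and -1.27. Rpl29, a large subunit protein, differed between the days, with 194 CPM in the naive library, 151 CPM at D11 and 73.0 CPM at D14, and log2 ratios of -0.36 and -1.41 (-1.85 to -1.01). Its D14 value lay below D11, unlike those of Rps29 and Rpl35. Rpl13a was the member nearest to naive at D14, with 2436 CPM in the naive library and 2300 CPM at D14, a log2 ratio of -0.08 (-0.16 to -0.01).

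The T cells of the 3 libraries also differed in genes of T cell state. Lef1, a transcription factor of naive T cells, was at 1924, 1189 and 1082 CPM in the naive, D11 and D14 libraries. Ccr7, the homing receptor of naive T cells, was at 298, 179 and 126 CPM. Genes of effector and regulatory cells were higher in the leukemic libraries: S100a4 stood at 152, 1143 and 691 CPM, Ccl5 at 33.4, 362 and 469 CPM and Foxp3 at 24.2, 74.3 and 67.2 CPM. Among T barcodes with naive-like markers (912, 111 and 39) the ribosomal protein share was 20.1%, 15.3% and 14.2%, and the log2 ratios were -0.39 at D11 and -0.50 at D14. Ebf1, a transcription factor of the B lineage, was at 3.82, 15.6 and 51.1 CPM in the T cells. The part of these genes in the result was not tested.

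B cells showed small differences in the opposite direction, which the short members did not share. The share of ribosomal protein UMIs over naive had a log2 ratio of 0.10 at D11 and 0.12 at D14. On each day 57 of 77 members were above naive, beside 48.4% and 48.5% of all genes tested. The median of the members was 0.23 and 0.16, against -0.01 for all genes on both days. Only Rps6 was at least 1.5-fold higher at D11, where 3.17% of all genes were, and only Rplp0 at D14, where 9.74% were. At least 1.5-fold lower were 5 members at D11, against 2.23% of all genes, and 2 at D14, against 9.97%, which for D14 is no larger a share than the background. The D14 value rests on 40 B barcodes and changed sign with a looser gate (-0.02), a stricter gate (-0.24, 16 barcodes) and barcodes free of other classes' markers (-0.06, 19 barcodes). The looser gate asks for 1 marker fewer, and the stricter gate for 1 more and for none of any other class. The looser gate also drops barcodes that pass 2 of the lowered gates, so it can hold fewer barcodes (38 B barcodes at D14 against 40). Rplp0, the base of the ribosomal stalk that recruits elongation factors, was at 1261 CPM in the naive library, 1789 CPM at D11 and 2077 CPM at D14. Its log2 ratios were 0.50 and 0.72 (0.59 to 0.85), although with the stricter gate its D14 ratio was -0.10. Rpsa, a small subunit protein also known as the laminin receptor, was at 1757, 2343 and 2582 CPM, log2 ratios of 0.42 and 0.56. Rps6, the small subunit protein that is phosphorylated downstream of mTOR, was at 719, 1108 and 1042 CPM, log2 ratios of 0.62 and 0.53. All 3 were above naive on both days. Lower were Rpl38 with 1406, 816 and 898 CPM (-0.79 and -0.65), Rps29 with 3407, 1841 and 2268 CPM (-0.89 and -0.59) and Rpl35 with 629, 393 and 451 CPM (-0.68 and -0.48).

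NK cells resembled T cells in direction, and their log2 ratio of the share was -0.29 at D11 and -0.38 at D14. Below naive were 70 and 75 of 77 members, while 53.8% and 52.1% of all genes were above. The medians were -0.20 and -0.32 beside 0.03 and 0.02 for all genes. The members at least 1.5-fold lower numbered 12 at D11, against 4.34% of all genes, and 14 at D14, against 9.35%. Rps28, a small subunit protein at the mRNA exit, was at 1427 CPM in naive NK cells, 607 CPM at D11 and 646 CPM at D14, log2 ratios of -1.23 and -1.14. Rpl35 followed with 522, 212 and 251 CPM (-1.30 and -1.06), and Rpl29 with 152, 85.5 and 82.3 CPM (-0.83 and -0.89). Rpl4, a large subunit protein that lines the peptide tunnel, was the single member above naive on both days, at 488, 523 and 494 CPM, and both of its intervals included 0. These NK values turned with the gate. The stricter gate gave log2 ratios of the share of 0.26 at D11 (22 barcodes) and 0.03 at D14 (7 barcodes) and a D14 ratio of 0.33 for Rpl35. Barcodes free of other classes' markers gave 0.26 at D11 (23 barcodes) and -0.89 at D14 (6 barcodes).

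Neutrophils held few ribosomal protein UMIs, and fewer still in the leukemic libraries, where the log2 ratio of the share was -0.22 at D11 and -0.59 at D14. The D11 value was smaller with TMM factors (-0.0857) and without the members of under 300 coding bases (-0.06). Of the members 66 had at least 50 CPM. The 13 others included Rpl31, Rpl12, Rpl35, Rpl22, Rpl4, Rpl29, Rpl14, Rpl10a, Rps18, Rpl36a, Rpl39l and Rpl10l. Below naive were 50 of the 66 at D11 and 59 at D14, while 41.9% and 40.7% of all genes were above. The medians were -0.14 and -0.60 beside -0.05 and -0.12 for all genes. A difference of 1.5-fold or more downward was found for 13 at D11 (8 with TMM factors), where 3.19% of all genes were, and 33 at D14, where 17% were. Rpl38, a large subunit protein known for its part in the translation of Hox mRNAs, was at 249 CPM in the naive library, 102 CPM at D11 and 75.0 CPM at D14, log2 ratios of -1.29 and -1.73 (-1.97 to -1.50). Rps28 was at 165, 57.5 and 56.7 CPM (-1.52 and -1.54). Rps27, a zinc-binding protein of the small subunit, was at 855, 495 and 294 CPM (-0.79 and -1.54). All 3 were lowest at D14, Rps28 by little.

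A few members were higher in neutrophils at D14. None was at least 1.5-fold higher at D11, against 4.32% of all genes, and 2 were at D14, Rpl3 and Rpsa, against 11.3%. Rpl3, which reaches towards the catalytic centre of the large subunit, was at 36.8, 44.6 and 70.1 CPM, log2 ratios of 0.28 and 0.93 (0.60 to 1.26). Rpl3 reached the mean of 50 CPM only through its D14 value, so its place in this count follows in part from the minimum. Rpsa was at 67.7, 65.5 and 118 CPM (-0.05 and 0.80). Rps4x, the X-linked small subunit protein, was at 74.5, 89.6 and 110 CPM (0.27 and 0.56), and Rplp0 was at 178, 197 and 219 CPM (0.15 and 0.30). These genes are abundant in the leukemia barcodes, which held Rpl3 at 1935 CPM and Rpsa at 4040 CPM at D14. Ebf1 was found in the neutrophil sum at 9.0, 17.5 and 110 CPM, and in the D14 leukemia barcodes at 3732 CPM. Among the 178, 167 and 115 neutrophil barcodes free of other classes' markers the D14 log2 ratios were 2.24 for Rpl3, 0.89 for Rpsa, 1.31 for Rps4x and 0.69 for Rplp0. The part of leukemia transcripts in these ratios was not tested. The median share of mitochondrial UMIs in neutrophils was 0.199%, 0.222% and 1.03%, and its part in the D14 result was not tested.

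Monocytes did not show the lower share seen in T cells. In cMono (38, 69 and 32 barcodes) the log2 ratio of the share was 0.08 at D11 and 0.06 at D14. Above naive were 56 and 46 of 77 members, beside 49.9% and 52.3% of all genes. The medians were 0.21 and 0.08 beside 0.00 and 0.03 for all genes. At least 1.5-fold higher were 6 members at D11, against 8.33% of all genes, and 5 at D14, against 15%. At least 1.5-fold lower were 7 at D11, against 7.54%, and 4 at D14, against 13.4%, so that at D14 both shares were below the background. Rps2, at the mRNA entry of the small subunit, was at 649 CPM in naive cMono, 1221 CPM at D11 and 1212 CPM at D14, log2 ratios of 0.91 and 0.90. Rpl12, at the foot of the stalk, was at 721, 1251 and 1334 CPM (0.80 and 0.89). In both of these the naive value was the lowest of the 3 libraries. Rps27 was lower with 2312, 1250 and 1244 CPM (-0.89 on both days), as were Rps29 with 4862, 2352 and 2762 CPM (-1.05 and -0.82) and Rpl38 with 1673, 882 and 1089 CPM (-0.92 and -0.62). The share in cMono changed sign with the stricter gate (-0.12 and -0.40, with 4 naive, 5 D11 and 3 D14 barcodes) and in barcodes free of other classes' markers (-0.20 and -0.77, with 5, 5 and 1 barcodes). Proliferation genes were higher in the D14 cMono, Mki67 at 22.2, 19.3 and 304 CPM and Top2a at 0, 7.71 and 205 CPM, and S100a8 was at 46.9, 593 and 2363 CPM. Their part in the cMono values was not tested.

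In ncMono (79, 139 and 435 barcodes) the members were higher at D11 and level at D14. The log2 ratio of the share was 0.22 at D11 and -0.06 at D14, with 63 and 40 of 77 members above naive. Among all genes 49.5% and 52.6% were above, so the D14 count was no larger a share than the background. The medians were 0.38 and 0.00 beside -0.01 and 0.02 for all genes. At least 1.5-fold higher were 11 members at D11, against 9.19% of all genes, and 0 at D14, against 10.3%. At least 1.5-fold lower were 4 at D11, against 6.88%, and 4 at D14, against 7.89%, both below the background. Rpl7, a large subunit protein, was at 590, 956 and 796 CPM, log2 ratios of 0.70 and 0.43. Rps9, a protein near the mRNA entry of the small subunit, was at 1042, 1640 and 1470 CPM (0.65 and 0.50). Both were highest at D11. Rpl38 with 1149, 592 and 636 CPM (-0.96 and -0.85), Rps28 with 1128, 630 and 700 CPM (-0.84 and -0.69) and Rps29 with 3956, 2160 and 2475 CPM (-0.87 and -0.68) were lower. The stricter gate left only 3 naive barcodes, and the barcodes free of other markers only 5. With these the log2 ratio of the share was 0.53 and 0.86 at D11 and 0.37 and 0.74 at D14, the last 2 of the opposite sign to the full class, and Rps28 turned to 0.15 and 0.41 at D11 and 0.36 and 0.54 at D14. Rpl38 turned to 0.01 and 0.32 in the latter barcodes. The D14 share was also above naive with TMM factors (0.03), as a mean over barcodes (0.07) and without the members under 300 coding bases (0.04).

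Red cells kept residual amounts of these mRNAs. Only 15 members reached 50 CPM, among 171 genes that did. Above naive were 13 of these members on both days, beside 54.4% and 33.9% of all genes. The members had medians of 0.41 and 0.71 beside 0.04 and -0.22 for all genes, and 8 were at least 1.5-fold higher at D14, where 13.5% of all genes were. With TMM factors the count at D14 was 0. The minimum is a mean over the libraries, so a member low in the naive library could pass it through its leukemic values. Rplp1, a stalk protein, was at 69.9 CPM in the naive library, 151 CPM at D11 and 162 CPM at D14, log2 ratios of 1.11 and 1.21. Rps12 was at 61.5, 67.9 and 147 CPM (0.14 and 1.26), and Rps24, a protein altered in some families with Diamond-Blackfan anemia, was at 48.7, 79.5 and 104 CPM (0.71 and 1.09). Rps24 reached the mean of 50 CPM only through its leukemic values, so its place here follows in part from the minimum. Rps29 went the other way with 233, 110 and 128 CPM (-1.08 and -0.86). The log2 ratio of the share was 0.43 at D11 and 0.64 at D14, and with TMM factors it was 1.24 at D11 and -0.10 at D14, so that its direction at D14 depends on the scaling. The naive class had 50 barcodes against 1201 and 943. Ebf1 stood at 0, 6.80 and 66.6 CPM in this class, and its part was not tested.

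**Figure D2:**
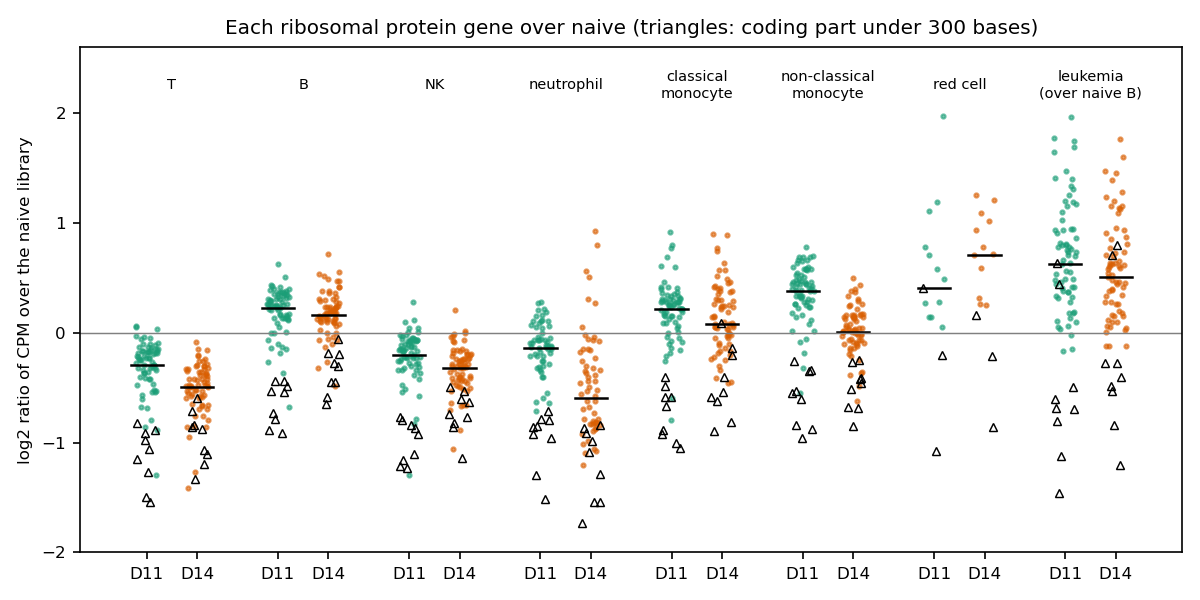
Log2 ratio of CPM over the naive library (vertical axis) of each member with a mean of at least 50 CPM, by class and day (horizontal axis), where leukemia barcodes are set against naive B cells. Points are genes, triangles are genes with under 300 coding bases and lines are medians. The medians lie at -0.29 and -0.49 in T cells and at 0.63 and 0.51 in leukemia barcodes.

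Leukemia barcodes are of another class than any in the naive library, where 3 barcodes passed their gate. They were set against naive B cells and against the B cells of their own library, and each gene's values in both comparisons are separate readings of the same leukemia sum. The share of ribosomal protein UMIs was higher than in naive B cells by log2 ratios of 0.55 at D11 and 0.47 at D14, with 67 of 77 members above on both days and medians of 0.63 and 0.51 beside 0.11 and 0.10 for all genes. At least 1.5-fold higher were 39 members at D11, against 38.5% of all genes, and 35 at D14, against 36.7%. At least 1.5-fold lower were 6 at D11, against 31.2%, and 2 at D14, against 28.1%. The members thus exceeded the background modestly on the high side and stayed far below it on the low side. Against the B cells of the same library the log2 ratio of the share was 0.45 at D11 and 0.35 at D14, 64 and 59 members were above, and 29 (against 38.1% of all genes) and 22 (against 36%) were at least 1.5-fold higher, which is no more than the background.

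Single members differed by far more than the list. Rplp0 was at 1261 CPM in naive B cells and at 4911 and 4269 CPM in leukemia barcodes at D11 and D14, log2 ratios of 1.96 (1.90 to 2.02) and 1.76. Against the B cells of the same library its ratios were 1.46 and 1.04. Rpl14, a large subunit protein, was at 724 CPM in naive B cells and at 2474 and 2190 CPM in leukemia barcodes (1.77 and 1.60), and its ratios within the libraries were 1.38 and 1.12. Both were above B cells in each comparison. Rps27 was at 3278 CPM in naive B cells and at 1196 and 1424 CPM in leukemia barcodes (-1.45 and -1.20). Within the libraries its ratios were -0.72 and -0.76. Rpl37a, a zinc-binding protein of the large subunit, was at 2067 CPM and at 1183 and 1434 CPM (-0.80 and -0.53), and Rps29 was at 3407 CPM and at 1568 and 1898 CPM (-1.12 and -0.84). Within the libraries these were closer to B cells, at -0.36 and -0.34 for Rpl37a and -0.23 and -0.26 for Rps29. Leukemia barcodes at D14 differed little from those at D11, with a log2 ratio of the share of -0.08, 58 of 77 members lower, a median of -0.11 beside -0.02 for all genes, and no member at least 1.5-fold apart, where 4.91% of all genes were that much higher and 1.82% lower. Median UMIs per barcode were 24862 and 28567 in leukemia barcodes and 6010, 5413 and 6125 in B cells.

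Members differed by length. Coding sequences of 3 short members are shown because the short genes had the lowest ratios in most classes. They were read from GENCODE vM21 transcripts (GRCm38), 5′ to 3′, with the start and stop codons in capitals. Rpl41 (chr10:128548114-128549305, minus strand), whose protein is the shortest of the ribosome, has 78 coding bases. Rps28 (chr17:33819027-33824562, minus strand) has 210 and Rpl38 (chr11:114668524-114672331, plus strand) 213. The coordinates are those of the genes.
Rpl41: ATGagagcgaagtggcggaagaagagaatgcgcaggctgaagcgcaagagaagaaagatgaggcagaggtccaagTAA
Rps28: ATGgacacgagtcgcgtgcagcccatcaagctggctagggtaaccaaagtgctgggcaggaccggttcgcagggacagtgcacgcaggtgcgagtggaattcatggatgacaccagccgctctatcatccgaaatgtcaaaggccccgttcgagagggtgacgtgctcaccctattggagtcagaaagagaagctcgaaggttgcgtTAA
Rpl38: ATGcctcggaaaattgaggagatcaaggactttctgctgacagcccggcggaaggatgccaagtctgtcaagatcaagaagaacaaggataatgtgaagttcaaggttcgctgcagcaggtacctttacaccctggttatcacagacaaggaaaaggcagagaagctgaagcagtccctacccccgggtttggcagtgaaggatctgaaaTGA

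Fewer than 300 coding bases are found in 10 members, Rpl41, Rpl39, Rpl39l, Rps29, Rps28, Rpl38, Rps21, Rps27, Rpl37a and Rpl37. Of these 9 reached 50 CPM, all but Rpl39l, and all 9 were below naive in T cells, B cells, NK cells, neutrophils and ncMono on both days and in cMono at D11. In cMono at D14 8 were, the exception being Rpl41 with a log2 ratio of 0.09. The length limits were chosen after the values were seen. Medians of the 9 were -1.06 and -0.88 in T cells at D11 and D14, -0.54 and -0.31 in B cells, -0.92 and -0.74 in NK cells, -0.85 and -1.08 in neutrophils, -0.66 and -0.54 in cMono and -0.55 and -0.46 in ncMono. Members with at least 400 coding bases (53, in neutrophils 46) had medians of -0.21 and -0.42 in T cells, 0.28 and 0.19 in B cells, -0.12 and -0.31 in NK cells, -0.09 and -0.48 in neutrophils, 0.26 and 0.14 in cMono and 0.45 and 0.04 in ncMono. In each class and on each day the median of the short members was thus lower than that of the long ones. Single members crossed this order, such as Rpl29 in T cells at D14 (-1.41, against a lowest short value of -1.33). The median of the 15 members between (in neutrophils 11) lay in between at D11 in all 6 classes. At D14 it did so too except in NK cells, where it was -0.23 and above both others. Other genes with under 300 coding bases were nearer to naive, with medians of 0.11 and -0.11 in T cells (95 genes), -0.07 and -0.16 in B cells (75 genes), 0.09 and 0.24 in cMono (124 genes) and 0.08 and 0.02 in ncMono (98 genes). In NK cells they were -0.23 and -0.08 (97 genes) and in neutrophils -0.07 and -0.50 (77 genes).

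As a share of all ribosomal protein UMIs, the 10 short members went from 16.9% in naive T cells to 10.1% at D11 and 12.5% at D14. In B cells the values were 16.9%, 10.1% and 12.2%, in NK cells 16.7%, 10.3% and 13.2%, in neutrophils 23.1%, 14.4% and 16.0%, in cMono 16.8%, 9.52% and 11.8% and in ncMono 19.9%, 11.2% and 14.4%. In these 6 classes the naive library was highest, the D11 library lowest and the D14 library between them. Leukemia barcodes stood at 8.17% and 10.2%, and their D14 sum had all 9 short members above D11, with a median log2 ratio of 0.25, while 51 of 53 long members were below, with a median of -0.16. Red cells had 35.6%, 24.0% and 19.1%, a different order. Over the 77 members (66 in neutrophils) Spearman's correlation of the ratio with coding length was 0.75 and 0.48 in T cells, 0.79 and 0.54 in B cells, 0.78 and 0.32 in NK cells, 0.66 and 0.48 in neutrophils, 0.74 and 0.48 in cMono and 0.77 and 0.56 in ncMono at D11 and D14. These are correlations across genes, which are not independent replicates, and all points share the naive library. The order of the 3 libraries was the same in the 6 classes, and a library's make and its condition cannot be told apart.

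In leukemia barcodes the short members also had the lower medians among the members. Over naive B cells the 9 short members had medians of -0.69 and -0.40 at D11 and D14, and the 53 long ones had 0.71 and 0.54. Other genes with under 300 coding bases were mostly higher there, with medians of 1.575 and 1.53 (116 and 117 genes). Against the B cells of the same library the short members had medians of 0.05 and -0.08 and the long ones of 0.50 and 0.39, and Spearman's correlation with length was 0.20 and 0.17, whereas against naive B cells it was 0.49 and 0.36. Without the short members the share of the list over naive had log2 ratios of -0.30 and -0.48 in T cells, -0.19 and -0.32 in NK cells, -0.06 and -0.46 in neutrophils, 0.21 and 0.20 in B cells, 0.20 and 0.14 in cMono and 0.37 and 0.04 in ncMono.

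**Figure D3:**
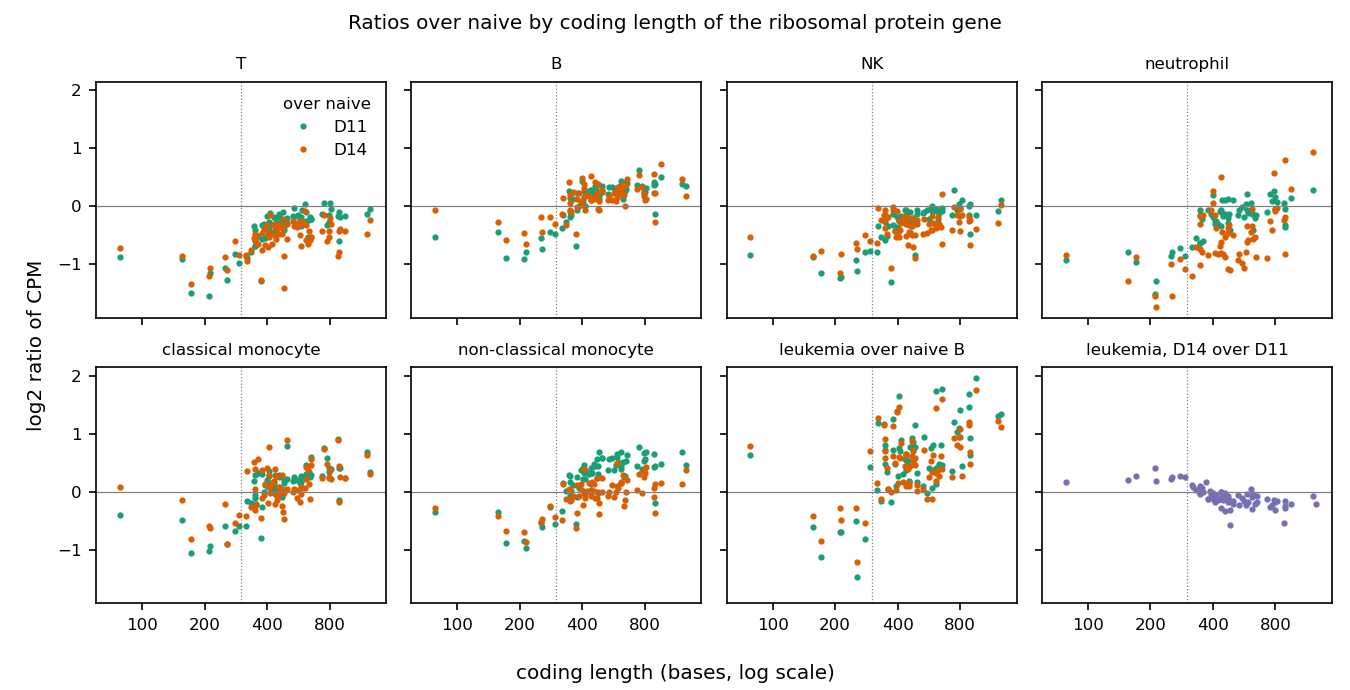
Log2 ratio of CPM of each member (vertical axis) against its coding length in bases (horizontal axis, log scale) by class, over naive at D11 and D14, and for leukemia barcodes over naive B cells and D14 over D11. Points are genes and the dotted line marks 300 bases. Left of it all points lie below 0 in T cells, B cells, NK cells, neutrophils and ncMono, and all 9 lie above 0 for leukemia D14 over D11.

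The make-up of the list was set against the median of the 6 classes other than leukemia and red cells, after each member was taken as a share of the class's ribosomal protein UMIs. Neutrophils differed most. In all 3 libraries 2 of 77 members were at least 2-fold above the median of the classes and 8 were at least 2-fold below it. Rps9 stood out, with log2 values of 2.71, 2.85 and 2.59. Its level in neutrophils was 1859, 2148 and 1461 CPM, against 2714, 2383 and 2208 CPM in T cells, while the whole list took 1.81% of UMIs in naive neutrophils and 19.5% in naive T cells. Rps27a, which is made as a fusion with ubiquitin, followed with log2 values of 1.11, 1.42 and 1.17 and levels of 788, 855 and 572 CPM. Rpl12, Rpl35, Rps20, Rpl32, Rps15a, Rpl10a and Rps18 were among the 8 below. Rps18, of the small subunit's head, was at 35.5, 33.5 and 26.1 CPM in neutrophils and at 1434, 1292 and 1026 CPM in T cells. Rpl10a, a protein of a mobile stalk of the large subunit, had the lowest values in the naive and D11 neutrophils, -2.64 and -3.07, and Rps18 was lowest at D14 with -1.79.

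The SD of these log2 values over the 77 members was 0.86, 0.92 and 0.66 in neutrophils. In T cells it was 0.24, 0.19 and 0.18, in B cells 0.20, 0.19 and 0.21 and in NK cells 0.19, 0.16 and 0.18. No member was 2-fold apart in all 3 libraries in T cells, B cells, NK cells, cMono or ncMono. Leukemia barcodes had SDs of 0.48 and 0.42. In both of their libraries Rpl36a, a large subunit protein at the exit site of transfer RNA, was at least 2-fold above the median of the classes (log2 values of 1.19 and 1.06) and Rps27 at least 2-fold below it (-1.01 and -1.05). Rpl36a was at 1597 and 1699 CPM in leukemia barcodes and at 700, 634 and 775 CPM in B cells. Many members have processed pseudogenes (59 of 79 have a named one in the annotation, 291 in all), and reads shared with these copies may be lost or split, so differences between members in level carry this uncertainty.

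**Figure D4:**
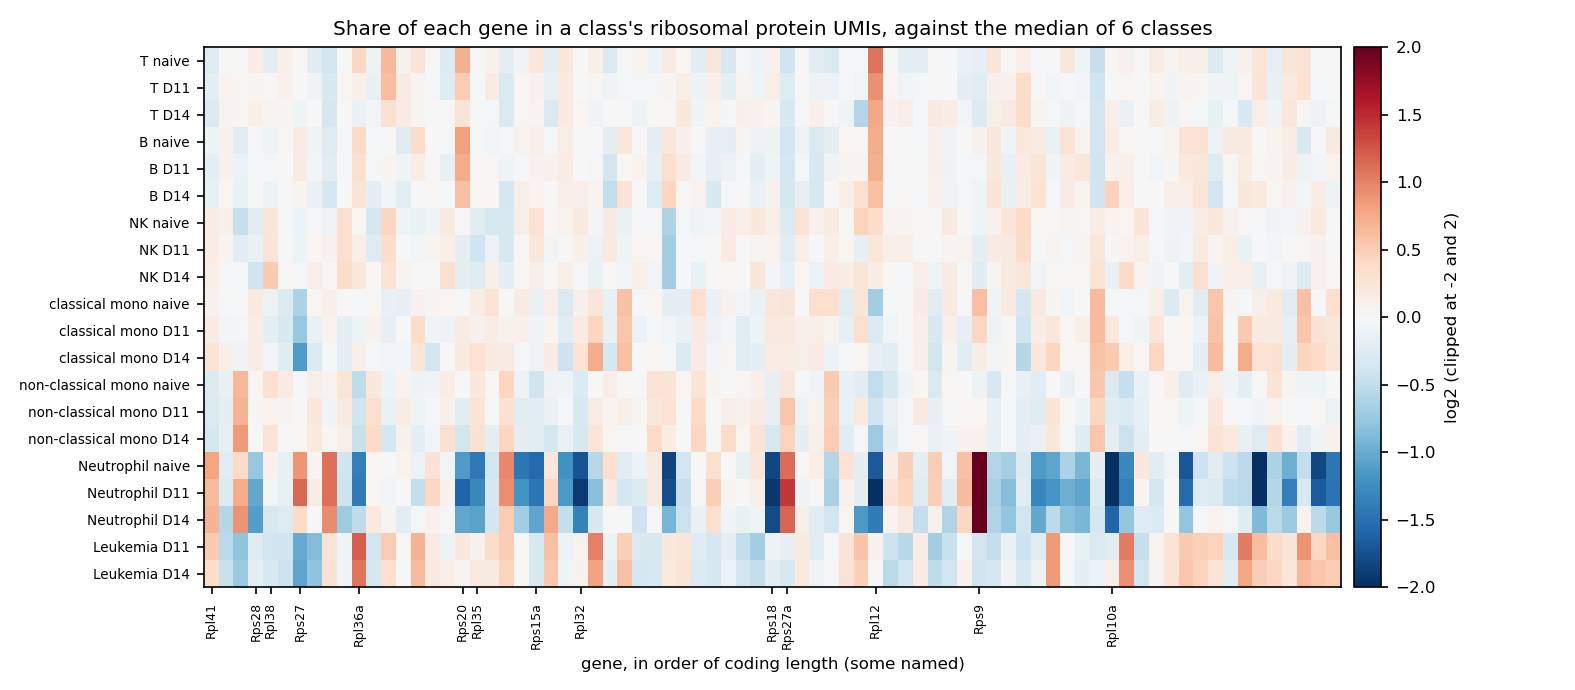
Share of each of 77 members (horizontal axis, in order of coding length, with some of the genes named) in the ribosomal protein UMIs of a class and library (vertical axis), as log2 over the median of the 6 classes in the same library, clipped at -2 and 2. Red is above and blue below the median. The neutrophil libraries show the widest spread, with Rps9 above and Rps18 below, and the T, B and NK libraries are close to 0.

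The ratio of large to small subunit UMIs was lower in neutrophils and higher in red cells than in the other classes in every library. UMIs of large subunit genes over those of small subunit genes were 1.06, 1.12 and 1.11 in T cells, 1.07, 1.07 and 1.05 in B cells and 1.22, 1.21 and 1.17 in NK cells. They were 1.18, 1.15 and 1.14 in cMono, 1.07, 1.08 and 1.04 in ncMono and 1.19 and 1.18 in leukemia barcodes. Neutrophils alone were below 1 in every library, at 0.949, 0.836 and 0.824, and red cells were at 1.81, 1.97 and 1.49. The small subunit sum of neutrophils includes Rps9, whose log2 values in their make-up were 2.71, 2.85 and 2.59. A single gene thus weighs on their ratios, and ratios without it were not computed, so they do not show a shift of the small subunit genes as a whole.

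Members with known roles beyond the ribosome's core were followed in every class. The stalk proteins Rplp1 and Rplp2 form dimers on Rplp0. Rplp1 had log2 ratios of -0.34 and -0.55 in T cells, 0.26 and 0.41 in B cells and 1.17 and 1.16 in leukemia barcodes over naive B cells. Rplp2 had -0.68 and -0.60 in T cells, -0.10 and 0.06 in B cells and 0.48 and 0.58 in leukemia barcodes, in each of these below Rplp1. Rpl5 and Rpl11, which bind and inhibit Mdm2 when ribosome assembly fails and so stabilise p53, kept close to one another in B cells (0.38 and 0.22 for Rpl5, 0.32 and 0.18 for Rpl11) and in leukemia barcodes (0.94 and 0.70, 0.95 and 0.72). In neutrophils they parted at D14, with -0.18 for Rpl5 (71.5, 57.2 and 63.2 CPM) and -0.83 (-1.05 to -0.61) for Rpl11 (176, 169 and 99.5 CPM). Rps19, the gene most often altered in Diamond-Blackfan anemia, was lower in T cells (-0.42 and -0.49) and higher in B cells (0.29 and 0.52), and in neutrophils it was at 74.7, 71.5 and 106 CPM (-0.06 and 0.51). Rps6 was among the members nearest to naive in T cells, at 1377, 1438 and 1234 CPM (0.06 and -0.16), and among the higher ones in cMono (0.77 and 0.74) and in ncMono (0.78 and 0.31). Rpl22, needed for the development of alpha-beta T cells, was at 1291, 1042 and 986 CPM in T cells (-0.31 and -0.39). Rpl41 was at 3067, 1665 and 1872 CPM in T cells (-0.88 and -0.71) and, unlike most short members, higher in leukemia barcodes than in naive B cells, at 3127 and 3507 CPM against 2014 CPM (0.63 and 0.80). Rps27a was lower in T cells (-0.24 and -0.38) and higher in ncMono (0.58 and 0.25).

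Tissue-restricted members were almost absent. Rpl10l, which takes the place of Rpl10 in male germ cells, had 0 UMIs in every class and library, which in the deepest sum, D14 leukemia, allows up to 0.194 CPM (3 counts). Rpl39l, another gene of the testis, had 5 UMIs in naive T cells, 3 in D14 ncMono and 0 elsewhere. Rps4l was not analysed here. The 4 paralogs that the rule leaves out were all higher in leukemia barcodes than in naive B cells on both days when counted with no minimum. The 3 that reached the minimum of 50 CPM follow. Rps27l, a p53 target, was at 58.5 CPM in naive B cells and at 834 and 662 CPM in leukemia barcodes (3.83 and 3.50), the opposite direction to Rps27. Rpl22l1 was at 312 CPM and at 646 and 546 CPM (1.05 and 0.81), and Rpl7l1 was at 57.7 CPM and at 80.1 and 64.6 CPM (0.47 and 0.16).

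Related gene lists were counted in the same sums. Of 18 other TOP genes, which include elongation factors, Npm1, Rack1 and the ribosomal protein fusion Fau, 10 were above naive in T cells at D11 (median 0.01) and 5 at D14 (median -0.23). In B cells 16 and 14 were above (0.30 and 0.33), in NK cells 11 and 6 (0.03 and -0.19) and in ncMono 16 and 16 (0.54 and 0.28). The shares of all tested genes above naive were 58.2% and 60.4% in T cells and 48.4% and 48.5% in B cells. They were 53.8% and 52.1% in NK cells and 49.5% and 52.6% in ncMono. Eef1a1, the elongation factor that brings transfer RNA to the ribosome, was at 1625, 2331 and 2030 CPM in ncMono and at 3808, 3861 and 3119 CPM in T cells. In neutrophils, counted with no minimum, 13 were above naive at D11 (0.07) and 4 at D14 (-0.17). With the minimum of 50 CPM 10 remained there, 7 and 2 of them above, beside 41.9% and 40.7% of all genes. In leukemia barcodes 16 of 18 were above naive B cells on both days, with medians of 1.07 and 0.92 beside 0.11 and 0.10 for all genes, and 14 and 13 were at least 1.5-fold higher, against 38.5% and 36.7% of all genes. Fau, which yields a small subunit protein and a ubiquitin-like one, was an exception with 3358 CPM in naive B cells and 1709 and 1722 CPM in leukemia barcodes (-0.97 and -0.96).

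Genes for making ribosomes were higher in leukemia barcodes than in B cells. These lists were counted whole, with no minimum, since many of their genes were low in B cells. All 22 genes of ribosome biogenesis were above naive B cells on both days, with median log2 ratios of 1.80 and 1.63, and 21 were above the B cells of the same library, with medians of 1.69 and 1.56. With the minimum of 50 CPM only 12 remained at D11 and 11 at D14, all above naive B cells. Of all genes with the minimum, 53.2% were above naive B cells on both days, and 53.2% and 52.6% were above the B cells of the same library. Nhp2, of the box H/ACA particles that modify ribosomal RNA, was at 28.8 CPM in naive B cells and at 324 and 234 CPM in leukemia barcodes (3.49 and 3.02). Fbl, the methyltransferase of ribosomal RNA, was at 50.2 CPM and at 293 and 240 CPM (2.54 and 2.26), and Npm1, a nucleolar chaperone, was at 386 CPM and at 2386 and 1806 CPM (2.63 and 2.22). Of 78 mitochondrial ribosomal protein genes 78 were above naive B cells at D11 (median 1.62) and 77 at D14 (1.34). With the minimum 36 remained at D11 and 34 at D14, all above naive B cells. The minimum is a mean of the 2 sums compared, so a gene low in B cells could pass it through its leukemia value. That all remaining genes of both lists were above thus follows in part from the minimum. Myc, which drives the transcription of all these groups, was at 11.7 CPM in naive B cells and at 75.0 and 89.3 CPM in leukemia barcodes (2.68 and 2.93, with a mean under 50 CPM at D11), and Mtor was at 52.7 CPM and at 262 and 296 CPM (2.31 and 2.49). Both come from a list of 8 genes that control this synthesis, of which 7 were above naive B cells and 1 below on both days (medians 1.55 and 1.18). With the minimum of 50 CPM, 4 of 5 were above at D11 and 5 of 6 at D14, with lower medians of 0.32 and 0.58. In T cells the biogenesis genes were mostly below naive, 15 of 22 at D11 (-0.19) and 18 at D14 (-0.49), and the mitochondrial ribosomal protein genes had medians of 0.18 and -0.22. These are whole lists, and many of their genes were low. With the minimum only 7 biogenesis genes remained, 7 and 6 of them below naive (-0.23 and -0.26). The 15 mitochondrial ribosomal protein genes that remained had medians of 0.17 and -0.29. Of all genes with the minimum, 58.2% and 60.4% were above naive in T cells. From D11 to D14 in leukemia barcodes, 18 of 22 biogenesis genes (-0.30), 67 of 78 mitochondrial ribosomal protein genes (-0.22) and 14 of 18 TOP genes (-0.17) were lower. Of all genes with the minimum, 46.6% were higher at D14.

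The bases at the annotated start of transcription are shown for members that the results turn on, since the TOP motif begins there. They were taken from RefSeq promoters of GRCm38.p6, which hold 59 of the 79 members, and cover 30 bases before and 20 bases from the start, read 5′ to 3′ on the gene's strand. Capitals mark a TOP-like run, here a C followed by at least 4 pyrimidines that begins within 10 bases of the start. The windows are Rps6 (chr4:86857348-86857397, minus strand), Rps27 (chr3:90213629-90213678, minus strand), Rpl35 (chr2:39005112-39005161, minus strand), Rpl38 (chr11:114668550-114668599, plus strand), Rpl14 (chr9:120571487-120571536, plus strand), Rpl41 (chr10:128549149-128549198, minus strand), Rps28 (chr17:33824543-33824592, minus strand) and Rplp0 (chr5:115559437-115559486, plus strand).
Rps6: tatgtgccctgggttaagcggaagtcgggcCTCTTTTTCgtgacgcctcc
Rps27: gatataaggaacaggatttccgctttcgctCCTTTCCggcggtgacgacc
Rpl35: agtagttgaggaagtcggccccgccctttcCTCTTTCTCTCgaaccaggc
Rpl38: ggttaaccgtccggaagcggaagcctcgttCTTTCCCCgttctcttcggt
Rpl14: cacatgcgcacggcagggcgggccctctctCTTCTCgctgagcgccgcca
Rpl41: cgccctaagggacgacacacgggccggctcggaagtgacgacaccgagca
Rps28: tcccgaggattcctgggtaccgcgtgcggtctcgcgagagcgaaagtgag
Rplp0: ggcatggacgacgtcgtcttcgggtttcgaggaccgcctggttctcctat

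Rps6, Rps27, Rpl35, Rpl38 and Rpl14 have such a run at the start, whereas Rpl41, Rps28 and Rplp0 have none in these letters, so that a run was seen both in members that were low in the leukemic libraries and in members that were higher in leukemia barcodes. Among 59 members with a promoter, 36 (61%) had a run, against 34.4% of all 27025 genes with a promoter and 35.2% of the 16522 protein-coding ones. A gene was counted if any of its promoters had a match, so genes with several promoters had more chances. The ETS-like motif CCGGAA, searched on both strands of the 300 bases, was in 33 (55.9%), against 16.7% and 21.5%. The YY1-like motif ATGGC, likewise on both strands, was in 33 (55.9%), against 44.2% and 42.8%. Of the short members all but 1 were in the table, and of these 9 a run was found in 5, CCGGAA in 7 and ATGGC in 6. Of the other TOP genes 11 were in the table, with 6, 5 and 6. A match says only that the letters are there, and an annotated start may lie some bases from the one used in blood cells.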

How the data were processed

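PB leukocytes were profiled by scRNA-seq with 10x Genomics 3′ v3 chemistry. The authors ran Cell Ranger on the reads and the deposited files are its filtered matrices of raw counts (UMIs per gene and barcode, not normalized). The submitters' processing notes name version 7.1.0 and the build mm10, whereas the file headers name version 5.0.1. Whether intronic reads were counted is not given in the sources used here. The summed depths and their intervals are given in the text.

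Barcodes were required to have 200 genes or more and a mitochondrial share of UMIs of up to 10% (3811, 4567 and 4414 in the naive, D11 and D14 libraries). Scrublet (scanpy 1.11.5) was run per library and the highest-scoring barcodes were removed at 0.8% per 1000 (116, 167 and 156). A class needed at least 3 gate markers with a UMI (leukemia 2), at most 1 of any other class and under 10% hemoglobin UMIs, and red cells at least 50%. UMIs were summed per class and library and given as CPM, the usual scaling of each sum to a common total. Ratios used no pseudocount and were taken for genes whose mean over the libraries of a class (or of the 2 sums compared) reached 50 CPM, except in whole lists of related genes and for Myc, and 1.5-fold was the limit for counting a gene. The analysis used Python 3.11.15, numpy 2.4.6, scipy 1.17.1 and pandas 2.3.3, and edgeR 4.0.16 (R 4.3.3) for TMM factors only. The interval procedure was tested on simulated data.

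Named were, per class, the 3 members with the largest difference in each direction at D14 that went the same way at D11, and members with set roles. Others were named after their values were seen, and some members under this rule are not reported here. The members and lists were chosen with earlier results of these data known. Alternatives were other cell filters, gates, denominators, minimums and scalings, whose effect is given at the end.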

Additional observations from a re-analysis of the deposited data

Results flagged for a closer look

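By the sums of the full classes, the classes of a library went in opposite directions. The log2 ratio of the ribosomal protein share over naive was -0.41 in T cells and 0.22 in ncMono at D11, and -0.59 in neutrophils and 0.12 in B cells at D14. Each is 1 value against 1 value, and the difference between the classes was not tested. The B cell value at D14 was not stable. It was -0.02 with the looser gate, -0.24 with the stricter gate and -0.06 in barcodes free of other classes' markers. As a mean over barcodes it was 0.008, and the median share of B barcodes was 8.88% in the naive library and 8.58% at D14. Ebf1, a transcription factor of the B lineage that is no ribosomal protein gene, was found in the neutrophil sum at 110 CPM at D14, against 9.0 CPM in the naive and 17.5 CPM in the D11 library, and at 3732 CPM in D14 leukemia barcodes.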

How the results depend on the processing

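Of 160 alternative values of the log2 ratio of the ribosomal protein share, 54 moved by less than their counting interval and 106 by more. The sign was kept in 143 and differed in 17, which were in B cells at D14, NK cells, cMono, ncMono at D14 and red cells at D14. T cells and neutrophils were below naive, and leukemia barcodes above naive B cells, in every alternative run. The gates leave few barcodes in the small classes, and the cause of each shift was not tested. No paired analysis was possible because each condition is 1 library. Red cells gave no value with the minimum of 500 genes. Barcodes free of other markers, naive-like T barcodes and the leaving out of short members were chosen after seeing the data. TMM factors shifted all log2 ratios by -0.12 and -0.16 in T cells, 0.13 and 0.093 in neutrophils and 0.82 and -0.75 in red cells at D11 and D14, and by less than 0.1 in other classes.

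The log2 ratio of the share (over naive, for leukemia barcodes over naive B cells) moved as follows. With TMM factors it was -0.53 at D11 and -0.71 at D14 in T cells, 0.0526 at D14 in B cells, -0.32 at D11 and -0.46 at D14 in NK cells, -0.0857 at D11 and -0.49 at D14 in neutrophils, 0.12 at D11 in cMono, 0.27 at D11 and 0.0258 at D14 in ncMono, 1.24 at D11 and -0.10 at D14 in red cells and 0.46 at D11 and 0.37 at D14 in leukemia barcodes. With 500 genes or more and up to 5% mitochondrial UMIs it was -0.63 at D14 in T cells, 0.11 at D11 and 0.0855 at D14 in B cells, -0.24 at D11 in NK cells, 0.11 at D14 in cMono and 0.49 at D11 and 0.42 at D14 in leukemia barcodes. Against other genes' UMIs it was -0.50 at D11 and -0.66 at D14 in T cells, 0.11 at D11 and 0.14 at D14 in B cells, -0.33 at D11 and -0.42 at D14 in NK cells, 0.24 at D11 in ncMono and 0.64 at D11 and 0.54 at D14 in leukemia barcodes. Without hemoglobin and mitochondrial UMIs it was 0.0832 at D14 in cMono, 0.39 at D14 in red cells and 0.54 at D11 in leukemia barcodes. With doublets kept it was -0.40 at D11 in T cells, 0.0893 at D11 in B cells, -0.21 at D11 in NK cells and 0.54 at D11 and 0.46 at D14 in leukemia barcodes. With the looser gate it was -0.41 at D11 and -0.57 at D14 in T cells, 0.0815 at D11 and -0.0213 at D14 in B cells, -0.42 at D14 in NK cells, -0.27 at D11 and -0.66 at D14 in neutrophils, 0.0197 at D11 and -0.00279 at D14 in cMono and 0.56 at D11 and 0.48 at D14 in leukemia barcodes. With the stricter gate it was -0.38 at D11 in T cells, 0.18 at D11 and -0.24 at D14 in B cells, 0.26 at D11 and 0.0325 at D14 in NK cells, -0.63 at D14 in neutrophils, -0.12 at D11 and -0.40 at D14 in cMono, 0.53 at D11 and 0.37 at D14 in ncMono, 0.33 at D11 in red cells and 0.65 at D14 in leukemia barcodes. As a mean over barcodes it was -0.44 at D11 and -0.49 at D14 in T cells, 0.0569 at D11 and 0.00804 at D14 in B cells, -0.41 at D11 and -0.34 at D14 in NK cells, -0.25 at D11 and -0.56 at D14 in neutrophils, 0.0428 at D11 in cMono, 0.29 at D11 and 0.0733 at D14 in ncMono, 0.75 at D14 in red cells and 0.72 at D11 and 0.68 at D14 in leukemia barcodes. Without members under 300 coding bases it was -0.30 at D11 and -0.48 at D14 in T cells, 0.21 at D11 and 0.20 at D14 in B cells, -0.19 at D11 and -0.32 at D14 in NK cells, -0.0621 at D11 and -0.46 at D14 in neutrophils, 0.20 at D11 and 0.14 at D14 in cMono, 0.37 at D11 and 0.0404 at D14 in ncMono, 0.67 at D11 and 0.97 at D14 in red cells and 0.70 at D11 and 0.58 at D14 in leukemia barcodes. In naive-like T barcodes it was -0.39 at D11 and -0.50 at D14 in T cells. In barcodes free of other classes' markers it was -0.40 at D11 and -0.53 at D14 in T cells, 0.0789 at D11 and -0.0571 at D14 in B cells, 0.26 at D11 and -0.89 at D14 in NK cells, -0.20 at D11 and -0.77 at D14 in cMono, 0.86 at D11 and 0.74 at D14 in ncMono, 0.33 at D11 in red cells and 0.54 at D11 and 0.57 at D14 in leukemia barcodes. Signs of single members changed too, for example in B cells at D14 for Rplp0 (-0.10, stricter gate), in NK cells at D14 for Rpl35 (0.33, stricter gate) and in ncMono for Rps28 (0.15 at D11 and 0.36 at D14 with the stricter gate, 0.41 and 0.54 free of other markers) and Rpl38 (0.012 at D11 and 0.32 at D14, free of other markers). Of 1394 values of named members under alternatives, 949 moved by less than the counting interval.

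Counts of members at least 1.5-fold apart stayed within 1.5 times in 211 of 256 alternatives. The others follow, each before the count it replaces. With TMM factors they were 48 for 26 in T cells at D14 (lower), 8 for 13 in neutrophils at D11 (lower), 4 for 2 in neutrophils at D14 (higher), 17 for 11 in ncMono at D11 (higher), 14 for 5 in red cells at D11 (higher), 0 for 1 in red cells at D11 (lower), 0 for 8 in red cells at D14 (higher), 3 for 1 in red cells at D14 (lower). With the stricter gate they were 2 for 1 in B cells at D11 (higher), 0 for 1 in B cells at D14 (higher), 11 for 2 in B cells at D14 (lower), 23 for 0 in NK cells at D11 (higher), 6 for 12 in NK cells at D11 (lower), 10 for 0 in NK cells at D14 (higher), 9 for 14 in NK cells at D14 (lower), 1 for 0 in neutrophils at D11 (higher), 4 for 2 in neutrophils at D14 (higher), 3 for 5 in cMono at D14 (higher), 22 for 4 in cMono at D14 (lower), 44 for 11 in ncMono at D11 (higher), 35 for 0 in ncMono at D14 (higher), 2 for 4 in ncMono at D14 (lower). With the looser gate they were 0 for 1 in B cells at D14 (higher), 4 for 2 in B cells at D14 (lower), 3 for 6 in cMono at D11 (higher). In barcodes free of other classes' markers they were 0 for 1 in B cells at D14 (higher), 5 for 2 in B cells at D14 (lower), 22 for 0 in NK cells at D11 (higher), 6 for 12 in NK cells at D11 (lower), 60 for 14 in NK cells at D14 (lower), 2 for 0 in neutrophils at D11 (higher), 5 for 2 in neutrophils at D14 (higher), 3 for 6 in cMono at D11 (higher), 14 for 7 in cMono at D11 (lower), 46 for 4 in cMono at D14 (lower), 55 for 11 in ncMono at D11 (higher), 0 for 4 in ncMono at D11 (lower), 49 for 0 in ncMono at D14 (higher), 0 for 4 in ncMono at D14 (lower). With a minimum of 20 CPM they were 22 for 5 in red cells at D11 (higher), 5 for 1 in red cells at D11 (lower), 33 for 8 in red cells at D14 (higher). With no minimum they were 33 for 5 in red cells at D11 (higher), 8 for 1 in red cells at D11 (lower), 49 for 8 in red cells at D14 (higher).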
